A study of Mus musculus with 8 samples.

Results

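The 10 genes described here, Gapdh, Aldoa, Aldoc, Pgk1, Tpi1, Eno1, Eno2, Pkm, Ldha and Ldhb, encode enzymes of the lower part of glycolysis and of the lactate step that follows it. They were found by gene name in a count table of 54532 genes, which gave 11 rows, because a pair of rows is named Aldoa. Gapdh was selected on its low counts and on their difference between the genotypes, so its level and its difference are given as a description, with no test. The other 9 genes were added as enzymes of the same pathway.

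The counts came from bulk RNA-seq of the cortex of 8 mice, 8 mo old and C57BL/6 by the labels, with 1 library per mouse. All 8 mice carried the PS19 transgene, in which the mouse prion promoter drives human 1N4R tau with the P301S mutation. In 4 of them (m677, m668, m665 and m659) this was the only alteration, and they are called PS19. The other 4 (m671, m661, m660 and m658) carried in addition a knocked-in A187V mutation on 1 allele of Adrb1, the gene of the β1-adrenergic receptor. The labels name them Adrb1+/m;PS19, and they are called Adrb1-A187V;PS19 here. No mouse without the tau transgene was part of the comparison, and all of the mice were singly housed.

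Glycolysis turns glucose into pyruvate in the cytosol and yields ATP and NADH. Aldolase splits the 6-carbon sugar into triose phosphates, triosephosphate isomerase interconverts these, and glyceraldehyde-3-phosphate dehydrogenase (GAPDH) oxidizes glyceraldehyde-3-phosphate with NAD. Phosphoglycerate kinase then makes ATP, enolase forms phosphoenolpyruvate, pyruvate kinase makes ATP again, and lactate dehydrogenase exchanges pyruvate and lactate. In the brain some steps have isozymes with different cellular homes: Eno2 is the neuronal enolase and Aldoc the aldolase prominent in astrocytes. Gapdh is a classical reference gene for mRNA measurements, and rodent genomes hold many processed pseudogenes of it, which are intronless copies of the mRNA inserted elsewhere in the genome.

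The sequence of Gapdh bears on how its counts can be read, because some of these copies match it base for base over more than the length of a read. The first 150 coding bases of Gapdh, which is also the length of 1 read of the pair, are shown beside those of its copy with the most counts, Gm7336, and of the copy Gm2451. In Gapdh the stretch spans an intron of the minus strand of chromosome 6 (GRCm38), at chr6:125165271-125165293 and chr6:125163310-125163436. Gm7336 is a processed pseudogene at chr7:51746647-51747878, and Gm2451 is one at chr3:139649379-139650377. Both lie on the plus strand. All lines are read 5′ to 3′ from GENCODE transcripts, in lower case, and capitals mark bases that differ from Gapdh.
Gapdh: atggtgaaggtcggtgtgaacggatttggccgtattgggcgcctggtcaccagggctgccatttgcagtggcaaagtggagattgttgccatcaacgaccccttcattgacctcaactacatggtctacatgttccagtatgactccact
Gm7336: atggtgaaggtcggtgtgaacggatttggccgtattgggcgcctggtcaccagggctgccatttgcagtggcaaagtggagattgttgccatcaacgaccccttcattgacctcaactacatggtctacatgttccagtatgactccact
Gm2451: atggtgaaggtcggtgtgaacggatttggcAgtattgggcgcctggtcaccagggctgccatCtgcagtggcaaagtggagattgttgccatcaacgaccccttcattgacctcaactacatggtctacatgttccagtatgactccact
Gm7336 has the same 150 bases as Gapdh. Gm2451 differs by C31A and T63C, with the Gapdh base first and positions counted from 1 at the first base of the start codon. Of the 75 copies found for Gapdh, 10 were the same as Gapdh in all of these bases. With these 10 included, 33 had at most 3 differences.

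The enolase isozymes show the contrary case, related genes that a read can tell apart. The stretch of Eno1 comes from chr4:150239482-150239566 and chr4:150241045-150241109 on the plus strand, and that of Eno2 from chr6:124768238-124768322 and chr6:124767732-124767796 on the minus strand. Capitals in Eno2 mark the 31 bases that differ from Eno1.
Eno1: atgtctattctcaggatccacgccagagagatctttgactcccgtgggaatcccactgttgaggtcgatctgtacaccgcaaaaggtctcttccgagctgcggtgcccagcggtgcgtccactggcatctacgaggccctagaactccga
Eno2: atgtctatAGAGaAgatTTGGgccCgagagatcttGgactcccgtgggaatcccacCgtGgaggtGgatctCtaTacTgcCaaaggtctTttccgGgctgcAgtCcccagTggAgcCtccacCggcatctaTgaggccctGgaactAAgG
Over their 1302 coding bases Eno1 and Eno2 were 75.1% identical, and the longest run they shared was 20 bases. The longest shared run was 26 bases between Aldoa and Aldoc and 18 bases between Ldha and Ldhb. All of these runs are far shorter than a read.

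Copies were sought for every enzyme, as transcripts of other genes at least 95% identical over at least 150 bases. Gapdh had 75, of which 72 were annotated as pseudogenes, 26 were at least 99% identical and 6 had no count in any mouse. Its longest transcript has 1420 bases and 1271 windows of 150 bases, and 74.0% of these windows occurred whole in another gene. The share was 66.1% for Pgk1 with 3 copies and 49.0% for Eno1 with 3 copies. For Pkm it was 2.01%, with 1 copy. No window of Aldoa, Aldoc, Tpi1, Eno2, Ldha or Ldhb occurred whole in another gene. The treatment of reads with more than 1 matching place is not given in the sources used here, so the counts of Gapdh, Pgk1 and Eno1 are uncertain in that respect.

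**Figure D1:**
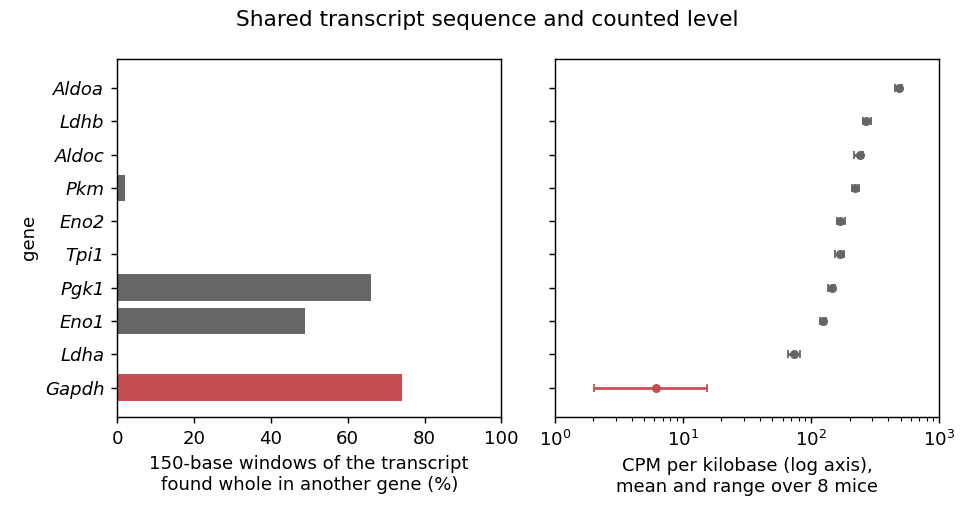
Left, share of the 150-base windows of each enzyme's longest transcript that occur whole in another gene (%, bars from 0); right, normalized counts per kilobase of gene model on a log axis, with the mean (point) and the range (bar) over 8 mice. Gapdh (red) has the largest share, 74.0%, and the lowest level, and Pgk1, with 66.1%, has a mean of 145.

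The libraries held between 14653222 and 21223754 counts, and edgeR's TMM factors, which scale the libraries, lay between 0.990 and 1.01. Levels are given in CPM, the counts of a gene scaled to a common library size with these factors. Genotypes were compared over the 17195 genes that passed edgeR's filter on low counts, by its quasi-likelihood test, and a gene is called changed at an unadjusted p under 0.05, the threshold the study used. By this rule 2.80% of the genes tested were called, 1.42% as higher and 1.37% as lower in the mutant mice. With Benjamini-Hochberg adjustment 0% were, and edgeR's smallest adjusted p was 0.999569. The CPM of the genotypes did not overlap for 2.02% of the genes tested. Summed CPM of 6 markers of cortical excitatory neurons ran from 1410 to 1640 in PS19 and from 1290 to 1470 in Adrb1-A187V;PS19 mice, with 5 of 6 lower and Slc17a7 and Tbr1 called lower. The sum of 8 astrocyte markers ran from 4410 to 5390 and from 4490 to 5460, with 7 of 8 higher and none called. The sum of 6 inhibitory neuron markers ran from 1030 to 1080 and from 1040 to 1170, with Gad2 (log2 fold change 0.24, SE 0.07) and Slc32a1 (0.18, SE 0.07) called higher and Vip (-0.19, SE 0.08) called lower. All 5 striatal markers (359 to 756 and 389 to 873 CPM in sum) and all 3 choroid plexus markers (17.6 to 358 and 21.0 to 560 CPM) had a fitted value above 0, with medians of 0.34 and 0.35, and none was called. None of these markers was at 0, and their part in the results below was not tested. In bulk tissue, fewer cells of a type and less RNA per cell cannot be told apart. On the first principal component of log2 CPM, m677, m659, m660 and m658 lay between -16.83 and -15.04 and the other 4 mice between 8.75 and 23.06, so that mice of both genotypes lay on each side. The astrocyte marker Gfap moved with this split, with 748, 827, 838 and 752 CPM in the former 4 and 182 to 354 CPM in the latter. The study used littermates as controls, but the labels give no litter or dissection for the mice. The p-values set the genotype difference against the spread among mice of a genotype and could not account for litter or dissection.

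Gapdh, ENSMUSG00000057666, lies at chr6:125161715-125166467 on the minus strand. In the PS19 mice its row held 173, 137, 176 and 180 counts (m677, m668, m665 and m659). In the Adrb1-A187V;PS19 mice it held 470 counts in m671, 213 in m661, 1134 in m660 and 1117 in m658. The raw counts of all 4 were above those of every PS19 mouse, but m661 came from one of the larger libraries. Scaled to library size, m661 had 10.2 CPM, inside the PS19 range of 8.31 to 10.8 CPM, so the genotypes overlapped. The other 3 had 28.2, 63.5 and 63.2 CPM.

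The mean of Gapdh was 9.80 ± 1.16 CPM in PS19 and 41.3 ± 26.5 CPM in Adrb1-A187V;PS19 mice (SD, n = 4 each). The log2 fold change was 2.07 (SE 0.42). It rested on the mice unequally: it was 2.40 without m661 and 1.79 without m660 or without m658. Among the 4 mice on the negative side of the first component, m677 and m659 had 10.6 and 10.8 CPM and m660 and m658 had 63.5 and 63.2 CPM. All 4 of these were high in Gfap. On the positive side, m668 and m665 had 9.46 and 8.31 CPM and m671 and m661 had 28.2 and 10.2 CPM. The spread within Adrb1-A187V;PS19 mice, 64.3% of their mean, was also far wider than that of any of the other 9 enzymes, for which it reached at most 8.26% in either genotype.

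The 75 copies of Gapdh together held more counts than Gapdh itself in 6 of the 8 mice. They summed to 30.6, 32.0, 29.0 and 32.4 CPM in the PS19 mice. In the Adrb1-A187V;PS19 mice the sum was 44.3 CPM in m671, 31.0 in m661, 34.5 in m660 and 32.6 in m658. Thus m671, and by less m660 and m658, lay above every PS19 mouse for the copies too, and m661 lay inside the PS19 range. Apart from m671 the copies lay between 29.0 and 34.5 CPM, while the Gapdh row itself varied from 8.31 to 63.5 CPM.

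Gapdh and its copies added together gave 41.2, 41.5, 37.3 and 43.2 CPM in the PS19 mice. The same sum was 72.5 CPM in m671, 41.2 in m661, 98.0 in m660 and 95.8 in m658. As means these were 40.8 ± 2.51 and 76.9 ± 26.4 CPM (SD, n = 4 each). With the copies added, m671, m660 and m658 still stood above every PS19 mouse and m661 did not. The log2 fold change of the sum was 0.91.

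The Gapdh row took 22.3% to 25.7% of this sum in the PS19 mice and 24.8% in m661. Its share was 38.9% in m671, 64.8% in m660 and 66.0% in m658. Because the copies varied little apart from m671, this share largely follows the level of the Gapdh row by arithmetic. It is therefore not a second observation. The part that the assignment of reads to copies had in the share or in the level was not tested.

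**Figure D2:**
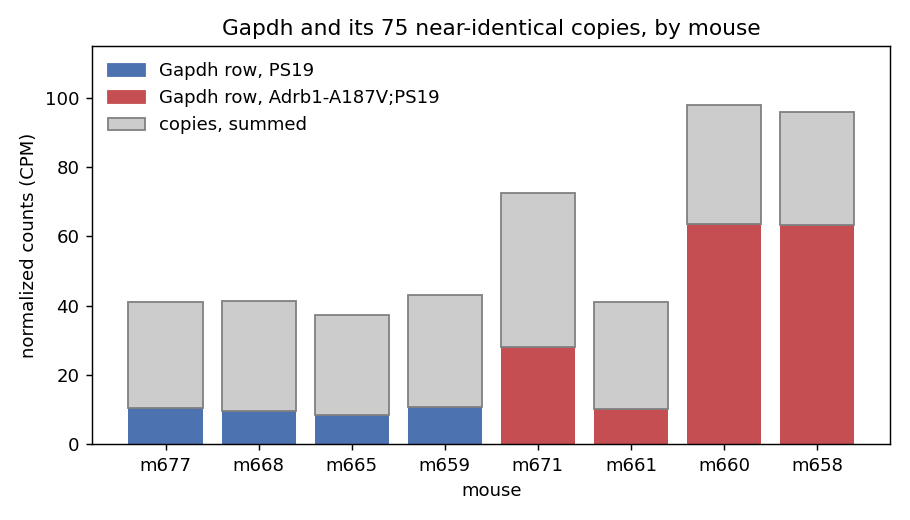
Normalized counts (CPM) of the Gapdh row (colored part) and of its 75 near-identical copies summed (gray part) in each of the 8 mice, stacked from 0. The gray parts lie between 29.0 and 44.3 CPM, while the colored parts of m671, m660 and m658 reach 28.2, 63.5 and 63.2 CPM against at most 10.8 CPM in PS19 mice.

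Only 7 of the 75 copies had enough counts to be tested. Gm7336 alone held 34.8% of the counts of all copies, with 166, 151, 219 and 199 counts in the PS19 mice and 266, 238, 196 and 198 in the Adrb1-A187V;PS19 mice. Its log2 fold change was 0.20 (SE 0.13). Gm5559 on chromosome 5 and Gm12070 on chromosome 11, each 99.9% identical to Gapdh over 1002 bases, had log2 fold changes of 0.18 (SE 0.19) and 0.19 (SE 0.21). All 7 had a fitted change above 0, with a median of 0.205 beside 0.00 for all genes tested. Of the 7, 0 were called, where 2.80% of all genes were. For Gm5559 and Gm13394, as for Gm7336, m671 held the most counts of all mice, 154 and 40. This did not hold for Gm5069, with 42 counts in m671 and 71 in m658. Because these rows can share reads with Gapdh, their values are not independent of it.

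Pgk1 and Eno1 also share windows with other genes, but the counts of their copies were small beside their own. The copies of Gapdh held 51.6% to 349% as many counts as the Gapdh row. Those of Pgk1, among them Pgk1-rs7 with 100% identity over 1255 bases, held 0.326% to 0.719% as many as Pgk1, and those of Eno1 held 3.17% to 3.54%. The part of the shared windows in the level of any of these enzymes was not tested.

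Levels of different genes can be compared only per length, here as CPM per kilobase of the gene model in the deposited table. On this scale the order of the means over 8 mice was Aldoa with 489, Ldhb with 270, Aldoc with 240, Pkm with 220, Eno2 and Tpi1 with 169 each, Pgk1 with 145, Eno1 with 123, Ldha with 73.8 and Gapdh with 6.18. The 9 enzymes other than Gapdh were above 97.2% to 99.8% of the genes tested, and Gapdh was above 59.1%. Neighbours in this order stood in it in 8 of 8 mice, except Eno2 and Tpi1, which changed places in 4 of them. Gapdh had 2.37 CPM per kilobase in PS19 and 9.99 in Adrb1-A187V;PS19 mice, and its highest mouse, at 15.4, was still below the lowest value of Ldha, 66.0. The places in the middle of the order depend on the length used. Divided by the longest transcript in place of the gene model, Eno1 took place 3 and Aldoc place 7, while Aldoa stayed highest and Gapdh lowest. The place of Gapdh is that of its row as counted, without its copies. The treatment of reads that match both is not given.

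**Figure D3:**
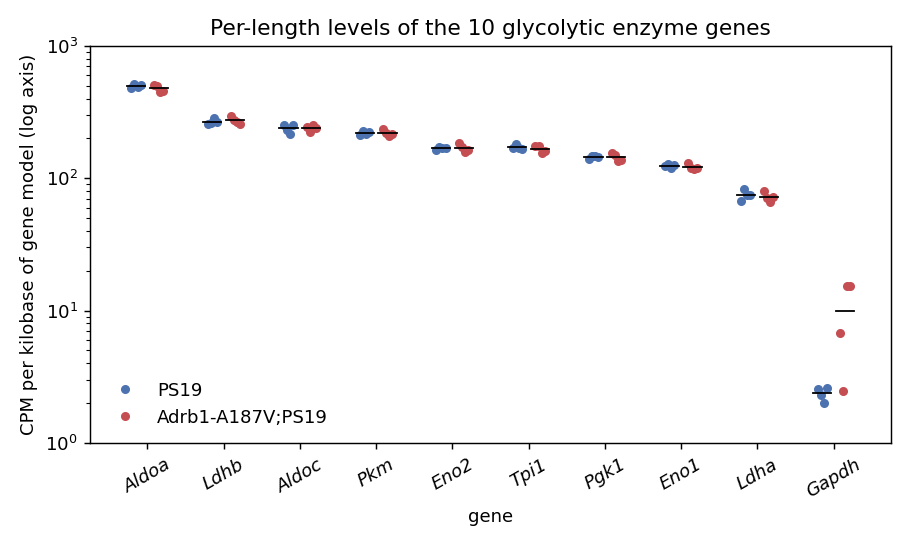
CPM per kilobase of gene model (log axis) of the 10 enzymes in the 4 PS19 (blue) and 4 Adrb1-A187V;PS19 mice (red), 1 point per mouse, with the mean of each genotype as a line. The genotypes lie side by side for 9 enzymes, and the points of Gapdh spread from 2.01 to 15.4.

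For the 9 enzymes other than Gapdh the genotypes were close. In the mutant relative to the PS19 mice, 3 had a fitted value above 0 and 6 below it, the log2 fold changes ran from -0.06 to 0.04 with standard errors of 0.05 to 0.07, and 0 of 9 were called (edgeR's quasi-likelihood test, lowest unadjusted p = 0.238, adjusted p = 0.999569 for each), where 2.80% of all genes were. The CPM of the genotypes overlapped for 10 of 10 enzymes, Gapdh included, as it did for all but 2.02% of the genes tested. The median log2 fold change of the 9 was -0.01, beside 0.00 for all genes tested. The median size of the change was 0.035, beside 0.0685 for all genes tested. The latter includes genes with few counts, whose changes are less precise, and no comparison at like levels was made. The highest of the 8 mice exceeded the lowest by a factor of 1.11 to 1.26.

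The aldolases come first in the order of the pathway. Aldoa, the broadly expressed aldolase (ENSMUSG00000030695, chr7:126795234-126800751), had 1402, 1504, 1425 and 1475 CPM in the PS19 mice and 1477, 1443, 1315 and 1336 CPM in the Adrb1-A187V;PS19 mice. The mice m660 and m658 lay below every PS19 mouse, and m671 and m661 lay inside their range. The log2 fold change was -0.06 (SE 0.05, unadjusted p = 0.238). Aldoc (chr11:78322968-78327781) had 826.1, 761.2, 709.6 and 829.8 CPM in PS19 and 798.4, 731.5, 825.2 and 785.2 CPM in Adrb1-A187V;PS19 mice. All 4 of the latter fell inside the range of the former, and the log2 fold change was 0.01 (SE 0.06, unadjusted p = 0.914). The second row named Aldoa (ENSMUSG00000114515, chr7:126800790-126809108) held only 15 to 32 counts per mouse, and its log2 fold change was -0.14 (SE 0.28, unadjusted p = 0.618).

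Tpi1, triosephosphate isomerase (chr6:124810586-124814296), had 466.8, 502.1, 468.7 and 458.2 CPM in PS19 and 482.9, 481.7, 425.5 and 438.7 CPM in Adrb1-A187V;PS19 mice. Again m660 and m658 were below every PS19 mouse and the other two inside the range, with a log2 fold change of -0.05 (SE 0.05, unadjusted p = 0.354). Pgk1, phosphoglycerate kinase (chrX:106187100-106203699), had 316.0, 329.9, 333.4 and 325.5 CPM in PS19 and 346.7, 338.0, 303.5 and 309.0 CPM in Adrb1-A187V;PS19 mice. Here m671 and m661 lay above and m660 and m658 below all PS19 mice, so that the means, 326.2 ± 7.52 and 324.3 ± 21.3 CPM (SD, n = 4 each), were alike while the spread was wider in the mutant mice. The log2 fold change was -0.01 (SE 0.05, unadjusted p = 0.877).

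Of the enolases, Eno1 (chr4:150236721-150248879) had 661.9, 689.3, 640.7 and 679.5 CPM in PS19 and 700.3, 637.9, 631.0 and 638.2 CPM in Adrb1-A187V;PS19 mice. The mouse m671 was above every PS19 mouse and the other 3 were below every one. Without m671 the genotypes of Eno1 would not overlap, but the share of all genes for which this holds without m671 was not counted. With all mice its log2 fold change was -0.03 (SE 0.05, unadjusted p = 0.477). Eno2, the neuronal enolase (chr6:124760053-124769673), had 772.8, 805.7, 794.4 and 802.0 CPM in PS19 and 872.3, 814.1, 749.3 and 767.6 CPM in Adrb1-A187V;PS19 mice. As for Pgk1, the 4 mutant mice lay outside the PS19 range, with m671 and m661 above it and m660 and m658 below it, and the log2 fold change was 0.01 (SE 0.05, unadjusted p = 0.805).

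Pkm, pyruvate kinase of muscle and brain (chr9:59656368-59679375), had 1069, 1147, 1078 and 1118 CPM in PS19 and 1177, 1103, 1051 and 1072 CPM in Adrb1-A187V;PS19 mice. The mouse m671 was the highest of all 8 and m660 the lowest, and the log2 fold change was -0.00 (SE 0.05, unadjusted p = 0.948). Ldha, the lactate dehydrogenase subunit typical of muscle (chr7:46841475-46855627), had 224.2, 274.2, 248.6 and 248.4 CPM in PS19 and 266.0, 234.8, 218.3 and 238.7 CPM in Adrb1-A187V;PS19 mice, and m660 alone lay outside the PS19 range. Ldhb, the subunit typical of heart (chr6:142490249-142507957), had 402.1, 410.1, 446.7 and 414.8 CPM in PS19 and 461.6, 436.2, 420.6 and 402.9 CPM in Adrb1-A187V;PS19 mice, and m671 alone lay outside. Their log2 fold changes were -0.06 (SE 0.07, unadjusted p = 0.439) and 0.04 (SE 0.05, unadjusted p = 0.464).

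**Figure D4:**
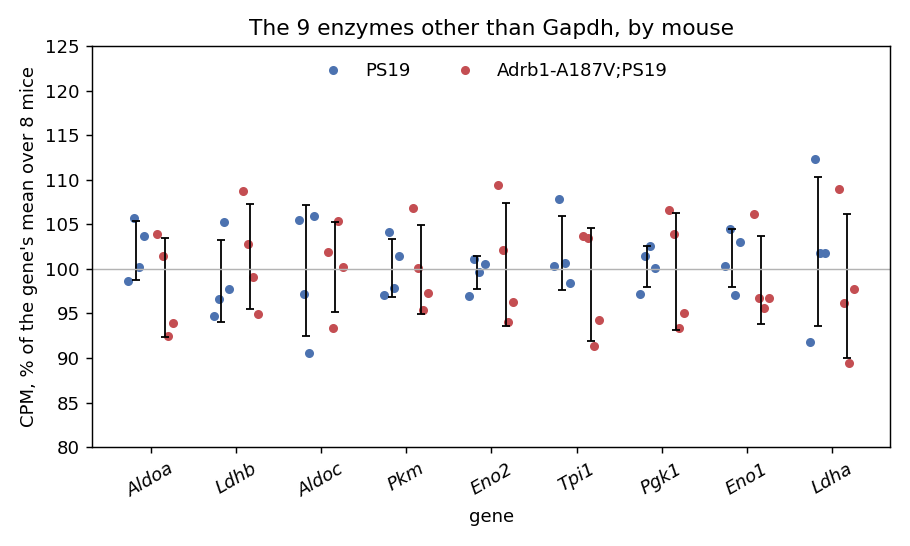
CPM of each of the 9 enzymes other than Gapdh as a percent of that gene's mean over 8 mice, 1 point per mouse (blue PS19, red Adrb1-A187V;PS19; the axis does not start at 0). Black bars are the mean ± SD of 4 mice, and the ranges of the genotypes overlap for every gene.

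The mice that stood out for Gapdh did not stand alike in the other enzymes. The mice m660 and m658, with the most Gapdh counts, had the lowest CPM of the 8 mice for Aldoa, Tpi1, Pgk1 and Eno2. This did not hold for Aldoc, Eno1, Pkm, Ldha or Ldhb. The mouse m671, also above every PS19 mouse for Gapdh, was the highest of the 8 for Pgk1, Eno1, Eno2, Pkm and Ldhb. These mice were picked by their Gapdh values, so their places are a description with no test. Summed over the 9 enzymes, the PS19 mice had 6141, 6424, 6146 and 6351 CPM. The Adrb1-A187V;PS19 mice had 6583 CPM in m671, 6220 in m661, 5940 in m660 and 5988 in m658. The genotypes overlapped, and the enzymes together took 0.594% to 0.658% of the counts of a mouse. The sums of cortical excitatory markers were also lowest in m660 and m658, at 1290 and 1320 CPM, and their part in the levels of the enzymes was not tested.

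The balance of isozymes per length overlapped between the genotypes for all 3 pairs. Aldoc over Aldoa was 0.481 ± 0.0394 in PS19 and 0.505 ± 0.0473 in Adrb1-A187V;PS19 mice. Eno2 over Eno1 was 1.36 ± 0.0392 and 1.40 ± 0.0462, so that the neuronal enolase was the higher one in each of the 8 mice when divided by the gene model. Divided by the longest transcript the order turned, with 0.862 ± 0.0249 and 0.891 ± 0.0293 (SD, n = 4 each). Ldha over Ldhb was 0.282 ± 0.0249 and 0.264 ± 0.016 (SD, n = 4 each), with more Ldhb in each mouse by either length. The 31 differences between Eno1 and Eno2 in the stretch printed above let a read tell these genes from each other. However, 49.0% of the windows of Eno1 and 0% of those of Eno2 occurred whole in some other gene. The part of this in the ratio was not tested.

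Some of the enzymes overlap another gene, and the strand setting of the counts is not given in the sources used here. Gapdh overlaps Iffo1 on the opposite strand, a gene of an intermediate filament family protein. Iffo1 had 51.9 to 59.8 CPM in the 8 mice and a log2 fold change of -0.07 (SE 0.06, unadjusted p = 0.274). In m660 and m658, where Gapdh was highest, it had 51.9 and 52.6 CPM, the lowest values of the 8 mice. Aldoa overlaps Fam57b and Tpi1 overlaps Spsb2, both on the opposite strand, and Pkm overlaps the unconfirmed transcript AC160637.1 on its own strand. These 3 genes held 729 to 1259, 30 to 55 and 192 to 312 counts, small beside those of the enzymes they overlap. Within 500000 bases of Gapdh, a stretch that also holds Eno2 and Tpi1, 39 genes were tested. Of these 17 had a fitted value above 0 and 22 below it, the median was -0.04, and 0 were called, where 2.80% of all genes were.

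The rest of the pathway was read from 8 gene lists with 89 genes, of which 80 were tested and 2 called, or 2.5% beside 2.80% of all genes. The list of other glycolytic enzymes, mostly of the upper part of the pathway, held 12 genes, and 12 were tested. The 4 with the most counts were Gpi1, which isomerizes glucose 6-phosphate, the phosphofructokinases Pfkm and Pfkp, and Hk1, the main brain hexokinase. Their log2 fold changes were -0.03 (SE 0.05), 0.01 (SE 0.05), -0.05 (SE 0.05) and -0.07 (SE 0.06). Across the list 3 genes were above 0 and 9 below it, with a median of -0.05, and 0 were called.

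**Figure D5:**
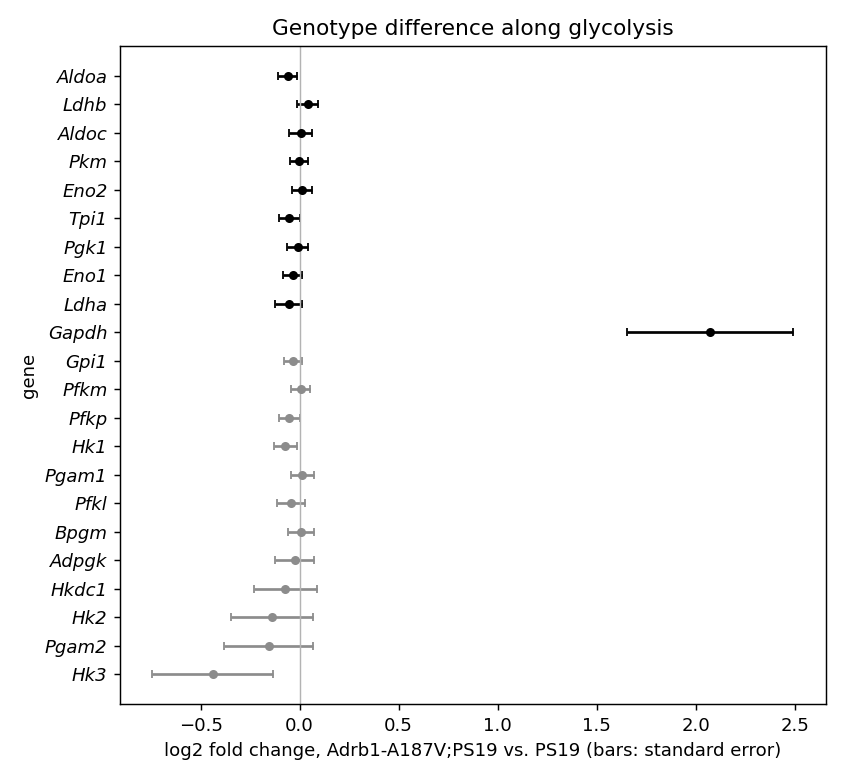
Log2 fold change of Adrb1-A187V;PS19 vs. PS19 mice (points) with its standard error (bars) for the 10 enzymes (black) and 12 other glycolytic enzymes (gray). Gapdh, at 2.07, lies to the right of the rest, and the wide bars at the bottom belong to genes with few counts.

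Of 12 regulators of glycolysis, 6 were above 0 and 6 below it, with a median of -0.00. Epas1, which encodes the hypoxia-inducible factor HIF-2α, was called higher. It had 143, 147, 138 and 144 CPM in PS19 and 148, 158, 153 and 163 CPM in Adrb1-A187V;PS19 mice, which did not overlap, and a log2 fold change of 0.12 (SE 0.05, edgeR, unadjusted p = 0.025). The call was lost without m665, m661 or m658, with p between 0.0584 and 0.0768. Hif1a, its paralog, had a log2 fold change of 0.08 (SE 0.05, unadjusted p = 0.145), and the prolyl hydroxylases Egln1 and Egln2, which mark these factors for degradation, had -0.02 (SE 0.07) and -0.06 (SE 0.07).

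Among the genes of pyruvate entry into mitochondrial metabolism no gene was called (15 tested, 9 above 0, median 0.01). The same held for the glucose and lactate transporters (8 tested, 5 above 0, median 0.03) and for the pathways that branch off glycolysis (13 tested, 6 above 0, median -0.01). Pdha1, the catalytic subunit gene of pyruvate dehydrogenase, had 0.01 (SE 0.05), and Slc2a3, the neuronal glucose transporter, had -0.06 (SE 0.06). Bsg, the chaperone of the lactate transporters, had 0.03 (SE 0.05). Of the gluconeogenic enzymes only Pck2 and G6pc3 could be tested, with -0.07 (SE 0.10) and 0.03 (SE 0.08).

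The genes listed for names like those of the 10 enzymes, most of them tissue-restricted forms, were low. Of 12 genes 6 were tested, 1 was above 0 and 5 below it, and 0 were called. Aldoart1, Pgk2 and Ldhal6b, which belong to the testis, had no count in any mouse, and 3 counts in the smallest library would be 0.207 CPM. Gapdhs, the sperm form of GAPDH, had 3.28 ± 0.196 and 3.05 ± 0.53 CPM in PS19 and Adrb1-A187V;PS19 mice (SD, n = 4 each). The highest of these genes was Eno1b, at 15.8 CPM. It is 99.5% identical to Eno1 over 1736 bases, so its counts cannot be told apart with certainty from those of Eno1.

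Gapdh was also read beside 12 other genes in common use as references, of which 6 were above 0 and 6 below it. Actb had 797 ± 41.9 and 818 ± 27.2 CPM in PS19 and Adrb1-A187V;PS19 mice, and Ywhaz had 940 ± 58.1 and 964 ± 36.3 CPM (SD, n = 4 each). Their log2 fold changes were 0.04 (SE 0.05) each. Ppia, cyclophilin A, was the 1 gene called, and it was lower. It had 623, 369, 634 and 674 CPM in PS19 and 484, 360, 349 and 566 CPM in Adrb1-A187V;PS19 mice, and a log2 fold change of -0.39 (SE 0.18, edgeR, unadjusted p = 0.046).

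The genotypes overlapped for Ppia through m668. The log2 fold change was -0.39 with DESeq2 and with limma-voom too, where the call was lost (unadjusted p = 0.114 and unadjusted p = 0.051). It ran from -0.55 to -0.29 with 1 mouse left out. The call was lost without m677, m665, m659, m661 or m660. It was kept without m668 (edgeR, unadjusted p = 0.00123), m671 or m658 (edgeR, unadjusted p = 0.00933). With no filter beyond 1 count the p was far lower (edgeR, unadjusted p = 1.36e-11), but the log2 fold change stayed at -0.39. That setting raised the number of genes called in the whole table from 481 to 1366. It raised the number with an adjusted p under 0.05 from 0 to 66. Why the p of Ppia fell so far was not tested. Ppia was also the reference gene with the most near-identical copies, 21, and with the largest share of windows found whole in another gene, 25.7%. The part of the copies in its values was not tested. For Actb, Hprt, B2m, Sdha, Tbp, Gusb, Tfrc and Rpl13a that share was 0%.

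The genes whose log2 CPM followed Gapdh most closely over the 8 mice were Sbf2 (r = 0.957), Ppp6r3 (r = 0.940), Zfp467 (r = 0.938), Uty (r = 0.933) and Foxf2 (r = 0.933). Sbf2 had 69.0, 68.5, 65.7 and 67.3 CPM in PS19 and 71.4, 68.7, 75.0 and 77.6 CPM in m671, m661, m660 and m658. Among the mutant mice it was lowest in m661 and highest in m660 and m658, as Gapdh was, but over a far smaller range. The genes that ran most against it were Crybg2 (r = -0.970), A330035P11Rik (r = -0.967), 5830408C22Rik (r = -0.961), Ndufa1 (r = -0.957) and Ube2d2a (r = -0.948). Ndufa1, a subunit gene of respiratory complex I, had 33.0, 31.5, 34.2 and 32.1 CPM in PS19 and 30.7, 32.7, 27.1 and 27.7 CPM in those mutant mice. These are the extremes of 17195 genes over 8 points, are given as a description with no test, and none of them is an enzyme of glycolysis.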

How the data were processed

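The authors aligned clean paired reads to GRCm38 with HISAT2 2.0.5, counted them per Ensembl gene with featureCounts 1.5.0-p3 and, per the labels, used DESeq2 1.20.0. The deposited values are raw counts, with a gene length in bases per row. Strand and multiple-mapping settings are not given in the sources used here. Genes kept by filterByExpr (17195 of 54532) were normalized with TMM factors and compared with edgeR 4.0.16 (quasi-likelihood test, 2-sided, no covariates, 4 mice per genotype) in R 4.3.3, and p-values were adjusted by Benjamini-Hochberg over all of them. A standard error is the log2 fold change over the square root of F. Copies were found with BLAST 2.17.0 among GENCODE transcripts of the same build. Log2 CPM used a prior count of 2.

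The members, lists and tests were chosen with earlier results of these data known. Named were the 10 members, their copies with the most counts, the 5 genes with the highest and the 5 with the lowest correlation with Gapdh, and from each list the genes called and up to 4 with the most counts. Some genes of the lists are not reported here and are not in their counts. Gapdhs and the paralogs without counts were named after their values were seen. Alternatives were DESeq2 1.42.0, limma-voom (limma 3.58.1), other scalings and filters, copies summed by name or by sequence, and each mouse left out. The script was tested on simulated counts. At 14653222 to 21223754 counts per mouse, precision is low for genes with few counts, such as the second Aldoa row.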

Additional observations from a re-analysis of the deposited data

Results flagged for a closer look

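In the Adrb1-A187V;PS19 mice the CPM of Eno1 in m671 stood apart from that of the other 3. It was 700.3 CPM against 631.0 to 638.2 CPM, and the gap to the nearest mouse was 0.896 of the range of the group, above Dixon's 95% critical value for 4 samples. This was 1 of 22 groups of 4 mice examined, and chance flags about 1 in 20.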

How the results depend on the processing

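With no filter beyond 1 count genes with an unadjusted p under 0.05 rose in number from 481 to 1366 and that with an adjusted p under 0.05 from 0 to 66. DESeq2 and limma-voom gave 555 and 492 by the first rule and 0 each by the second. Leaving out 1 mouse at a time gave 431 to 674 by the first rule and 0 to 2 by the second, with 1 without m661 and 2 without m658. The log2 fold change of Gapdh was 1.72 with limma-voom, 1.79 to 2.40 with 1 mouse left out, and 0.912 with its copies by sequence added, an alternative chosen after seeing the data. None of the 9 other enzymes was called under any of 16 settings, 131 of their 144 recomputed changes kept their sign and the lowest p was 0.0839. With 1 mouse left out, 1 to 5 of the 9 were above 0 (1 without m671, 5 without m658). The genotypes then did not overlap for 0 to 1 of the 10, Eno1 without m671 and Gapdh without m661. In each case the mouse left out was the one through which the genotypes overlapped. The share of all genes without overlap was not counted with 1 mouse left out, so nothing about the enzymes is concluded from this. Signs near 0 changed with the mouse left out for Aldoc (-0.037 to 0.039), Pgk1 (-0.043 to 0.022), Eno2 (-0.032 to 0.044), Pkm (-0.038 to 0.019), the second Aldoa row (-0.317 to 0.026), Pfkm (-0.018 to 0.030), Pfkl (-0.089 to 0.022) and Pgam1 (-0.028 to 0.037), and for Pkm with library totals alone (0.0013). Genes called in the 8 lists numbered 2, against 1 with DESeq2, 1 with limma-voom, and 0 to 4 with 1 mouse left out (4 without m668, 1 without m659, m660 or m658, and 0 without m665 or m661). The causes were not tested. Eno2 over Eno1 per length turned from 1.36 to 0.862 in PS19 and from 1.40 to 0.891 in Adrb1-A187V;PS19 mice when divided by the longest transcript, chosen after seeing the data. No paired analysis was possible because litters are not named in the labels, although the study used littermates as controls.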
